A study of Mus musculus with 4 samples.

Results

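The genes examined here encode the pacemaker channel Hcn4, 4 potassium channel pore subunits (Kcna5, Kcnq1, Kcnh2 and Kcnj2) and 3 connexins (Gja1, Gja5 and Gjc1). They are 8 of the 38293 genes in the deposited table and were taken by name, with symbols matched to the table's Ensembl identifiers. The rule used no measured value, though the genes were chosen with earlier results of these data known. RNA sequencing measured polyadenylated RNA in the ventricles of single mouse embryos of a C57BL/6 background at stage E12.5, all from litter 6, after the atria and the valve region had been removed. The knockout embryos, written cKO, carried floxed Hif1a on both chromosomes and Cre recombinase at 1 Nkx2-5 allele (Hif1alphaflox/flox/Nkx2.5Cre/+ in the labels). Their control littermates carried the same floxed alleles and 2 unmodified copies of Nkx2-5 (Hif1alphaflox/flox/Nkx2.5+/+). Each group had 2 embryos and 2 libraries, numbered 2 and 3. The comparison asks what differs in the embryonic ventricle once Hif1a, which encodes the HIF-1 subunit that oxygen destabilizes, is deleted where this Cre is active. The Cre is expressed from the Nkx2-5 locus in heart muscle precursors, so other cells of the ventricle may keep Hif1a. No group carried the Cre without floxed Hif1a, and the effects of Hif1a loss, of the Cre and of a changed Nkx2-5 locus cannot be told apart.

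The heartbeat begins in pacemaker cells, where HCN channels pass an inward current that depolarizes the membrane between beats. Potassium channels return the membrane to its resting voltage after each beat, the delayed rectifiers ending the action potential and the inward rectifiers holding the resting voltage. Connexins form the gap junctions that carry the impulse from cell to cell, and the fast-conducting trabeculae of the embryonic ventricle, from which the ventricular conduction system develops, are rich in connexin Cx40, the product of Gja5.

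Expected counts, RSEM's estimates of reads per gene, summed to between 8561687 and 19801300 in a library, and cKO replicate 3 was the deepest. That library was also the only male, with Ddx3y of the Y chromosome at 101 CPM (counts scaled by depth) against 0 to 0.110 CPM in the other 3. Hif1a stood at 716 and 663 CPM in cKO and at 530 and 552 CPM in control (log2 fold change 0.35 ± 0.09, SE, edgeR's quasi-likelihood test with Benjamini-Hochberg adjustment, adjusted p = 0.317), and DESeq2 called it higher in cKO (adjusted p = 0.018), the only 1 of 12 alternatives to do so. The table has no exon values, and a total for Hif1a leaves the deletion unchecked. Nkx2-5, which carries the Cre, had 44.3 and 42.1 CPM in cKO and 55.9 and 64.95 CPM in control (-0.49 ± 0.10, adjusted p = 0.153). The tissue label held for ventricular muscle: the ventricular light chain Myl2 was between 5110 and 5637 CPM in cKO and between 4352 and 5356 CPM in control. Of 10 markers of atrial and inflow muscle, Sln, Shox2, Isl1 and Vsnl1 were under 1 CPM in every library. The other 6 were expressed in all libraries: Myl4 and Myl7, which embryonic ventricles also express, made up most of the list's sum, Tbx18 lay between 80.3 and 111 CPM in cKO and between 88.0 and 90.1 CPM in control, and Nr2f2, Stard10 and Nr2f1 lay between 2.93 and 25.1 CPM over all libraries.

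RefSeq promoter windows on GRCm38.p6 were at hand for 6 of the 8 genes (Hcn4, Kcna5, Kcnh2, Kcnj2, Gja1 and Gja5), and the 250 bases before the transcript start were searched on both strands. The letters searched were ACGTG and GCGTG, the core of the hypoxia response element that HIF-1 binds, AAGTG, the core of the NKX2-5 site, GGTGTG, a T-box core, and TATAAA. Windows of 27025 genes were searched in the same way, of which 16.6% held ACGTG, 28.2% held GCGTG, 40.8% held AAGTG, 16.2% held GGTGTG and 13% held TATAAA. The 4 windows shown are those of the 3 genes with a match and that of Kcna5, the gene with the largest difference between groups. Capitals mark the matches, and each sequence runs 5′ to 3′ towards the transcript start.

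Kcnj2, chr11:111065914-111066163, plus strand: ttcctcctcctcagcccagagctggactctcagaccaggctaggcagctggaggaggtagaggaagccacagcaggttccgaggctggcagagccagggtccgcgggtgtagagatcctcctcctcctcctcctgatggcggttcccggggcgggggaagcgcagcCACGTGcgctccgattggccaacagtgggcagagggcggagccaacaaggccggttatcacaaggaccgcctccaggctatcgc

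Gja1, chr10:56377050-56377299, plus strand: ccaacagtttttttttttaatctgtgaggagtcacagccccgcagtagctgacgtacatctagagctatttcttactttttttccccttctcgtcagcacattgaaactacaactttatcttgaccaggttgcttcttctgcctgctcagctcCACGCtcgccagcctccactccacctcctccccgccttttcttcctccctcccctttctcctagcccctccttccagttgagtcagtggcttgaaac

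Gja5, chr3:97032152-97032401, plus strand: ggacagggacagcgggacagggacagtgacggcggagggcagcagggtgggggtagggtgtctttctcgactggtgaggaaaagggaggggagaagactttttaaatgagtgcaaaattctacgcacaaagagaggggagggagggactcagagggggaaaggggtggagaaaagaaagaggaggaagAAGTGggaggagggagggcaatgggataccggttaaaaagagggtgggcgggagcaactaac

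Kcna5, chr6:126535556-126535805, minus strand: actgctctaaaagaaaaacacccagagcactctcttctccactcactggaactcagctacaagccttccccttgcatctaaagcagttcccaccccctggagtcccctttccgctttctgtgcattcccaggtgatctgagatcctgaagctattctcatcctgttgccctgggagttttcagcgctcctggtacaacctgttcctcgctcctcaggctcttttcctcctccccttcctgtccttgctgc

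The window of Kcnj2 held ACGTG on both strands at 1 palindromic site, that of Gja1 held GCGTG once on its minus strand, and that of Gja5 held AAGTG once. None of the 6 windows held GGTGTG or TATAAA, and those of Hcn4, Kcna5 and Kcnh2 held none of the 5 motifs. The Kcnh2 window precedes a RefSeq start at 24329591, inside the gene, which runs to 24351604 on the minus strand. The Gja5 window precedes a RefSeq start at 97032402, inside the gene, which begins at 96904693 on the plus strand. Neither window is at the 5′ end of its annotated gene. A match is a description of the letters, and no match says only that they are not in these 250 bases.

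None of the 8 genes passed edgeR's test for a difference between cKO and control ventricles at an adjusted p under 0.05. Over all 13711 genes tested, 0.511% passed in either direction. All 8 passed the filter on low counts, and 1 of them, Kcna5, had an unadjusted p under 0.05, against 6.97% of all genes tested. DESeq2 also called none of the 8, and called 0.615% of 15293 genes. Log2 fold changes were positive for 4 genes and negative for 4, with a median of 0.012 over the 8 and of -0.00031 over all genes. The groups did not overlap for 2 of the 8 genes, Kcna5 lower and Gja1 higher in cKO, and they did not overlap for 38.2% of all genes tested (19.4% higher and 18.8% lower in cKO). In bulk tissue, fewer cells of a type and less RNA per cell cannot be told apart, which holds for every value below. CPM values are scaled by TMM, each fold change is cKO over control, and with 2 libraries against 2 an exact permutation test could not give a p below 0.333.

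**Figure D1:**
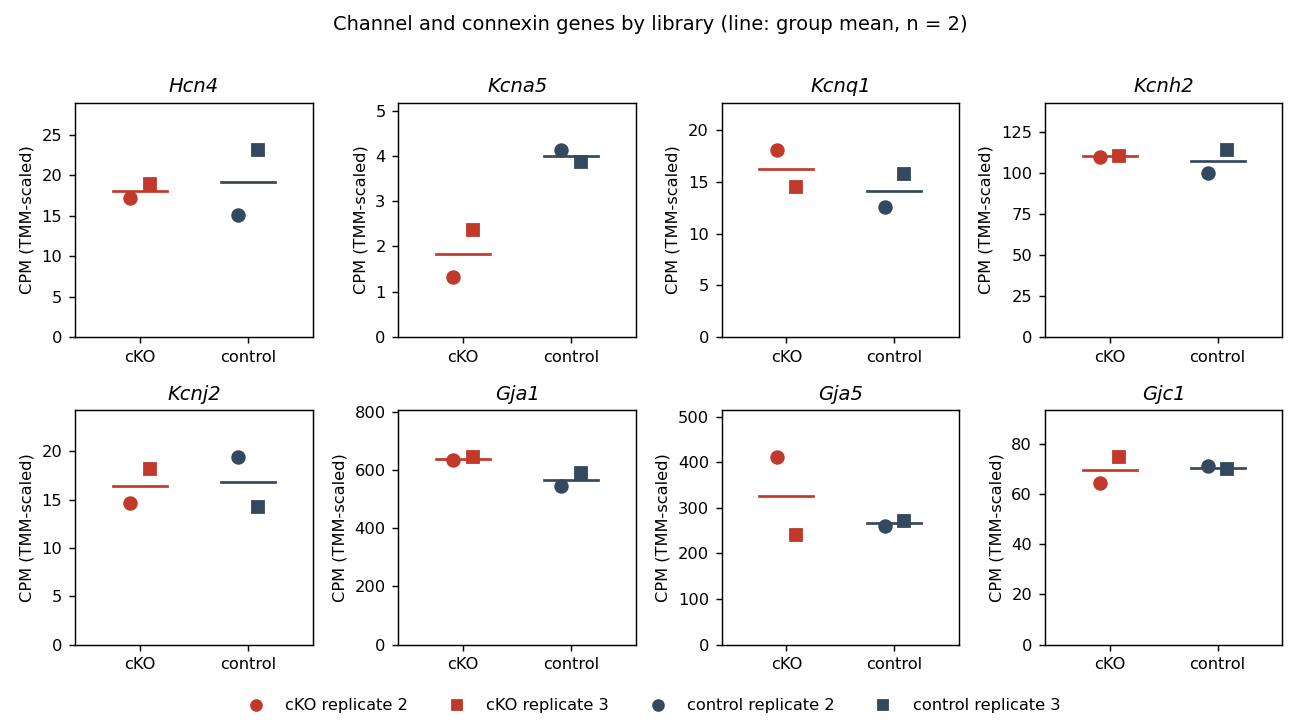
CPM of the 8 genes in each library (y axis, TMM-scaled CPM from 0; circles replicate 2, squares replicate 3, lines the group means of 2 libraries). Kcna5 lay at 1.315 and 2.36 CPM in cKO, below both controls, Gja5 was split between the cKO libraries at 411 and 241 CPM, and Gja1 was slightly higher in both cKO libraries.

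Hcn4 (ENSMUSG00000032338, chr9:58823412-58863175 on GRCm38, plus strand) encodes the main HCN channel of the pacemaker, which in the heart tube is expressed broadly before it becomes confined to the conduction system. It had 17.2 and 18.9 CPM in cKO and 15.1 and 23.2 CPM in control. Both cKO libraries lay between the controls. The log2 fold change was -0.080 ± 0.19 (SE, edgeR, adjusted p = 0.951), and its 95% interval ran from 0.698-fold to 1.28-fold. The controls themselves differed by 0.61 on the log2 scale, a gap that 6.88% of all genes tested exceeded, and leaving out control replicate 2 or 3 gave log2 fold changes of -0.35 and 0.26.

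Kcna5 (ENSMUSG00000045534, chr6:126532551-126535412, minus strand) encodes the pore of an ultrarapid delayed rectifier, a current best known from human atrial muscle and also carried in smooth muscle. Its whole annotated transcript is 1 exon. It had 1.315 and 2.36 CPM in cKO and 4.14 and 3.86 CPM in control, from 13 and 47 reads in cKO and 35 and 35 reads in control. Every cKO value was below every control value. Mean ± SD over the 2 libraries was 1.84 ± 0.740 CPM in cKO, against 3.998 ± 0.197 CPM in control, with a log2 fold change of -1.05 ± 0.36 (SE). It did not pass edgeR's test (unadjusted p = 0.0190, adjusted p = 0.593), and its 95% interval ran from 0.271-fold to 0.857-fold. Its rank by p was 437 among the 13711 genes, and 1.31% of them had a larger fold change in either direction.

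The reads behind Kcna5 were few. Exact Poisson intervals for single libraries, which cover counting error only, ran from 0.700 to 2.25 CPM and from 1.74 to 3.14 CPM in cKO replicates 2 and 3, and from 2.88 to 5.75 CPM and from 2.69 to 5.37 CPM in control replicates 2 and 3. The intervals of cKO replicate 2 and of each control did not meet, while that of cKO replicate 3 overlapped both controls. The gap between the cKO libraries was 0.77 on the log2 scale, which 3.82% of all genes tested exceeded. Leaving out 1 library gave log2 fold changes from -1.59 (without cKO replicate 3) to -0.76 (without cKO replicate 2), all negative and none past the threshold. In 2 of the 4 libraries the deposited value was not a whole number, as happens where RSEM divides reads between places they match. No other transcript matched it at 95% identity over 75 bases.

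Markers of other cell types were set beside Kcna5, first those of smooth and atrial muscle, where it is also known. Of 6 tested smooth muscle and pericyte genes 5 had negative log2 fold changes (median -0.28, 0 called), and the list of 7 summed to 844 and 978 CPM in cKO and to 1282 and 1296 CPM in control, chiefly Acta2, which embryonic heart muscle also expresses. The mature smooth muscle gene Myh11 was between 0.405 and 0.452 CPM in cKO and between 0.355 and 0.441 CPM in control. Atrial and inflow genes summed to 2672 and 2418 CPM in cKO and to 2666 and 2267 CPM in control. For heart muscle itself, 9 genes summed to 27140 and 26230 CPM in cKO and to 28960 and 28090 CPM in control. Their median log2 fold change was -0.063, with 4 positive, 5 negative and 0 called. Endothelial and endocardial markers had negative log2 fold changes for 10 of 10 genes (0 called, 6 with an unadjusted p under 0.05), with sums of 1451 and 1318 CPM in cKO and 1565 and 1612 CPM in control. Epicardial markers were negative for 8 of 8, with sums of 268 and 206 CPM in cKO and 269.6 and 315 CPM in control. Of these 8 the keratin gene Krt19 was called lower, at 25.4 and 17.9 CPM in cKO and 41.4 and 45.4 CPM in control (edgeR adjusted p = 0.0347). The part of these cell types in the Kcna5 values was not tested.

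Of the 8 genes, Kcna5 alone had a profile that spanned more than 1 log2 unit. By Euclidean distance between centred log2 CPM profiles over the 4 libraries, its nearest gene among 12318 named protein-coding genes was Slc2a1, the glucose transporter GLUT1, at a distance of 0.145. Slc2a1 had 102 and 156 CPM in cKO and 301 and 260 CPM in control, and it passed edgeR's test (adjusted p = 0.0468). The next were Psd at 0.186 and Ccdc116 at 0.226, neither past the test (adjusted p = 0.527 and 0.729). Nearness over 4 libraries describes these libraries only.

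Kcnq1 (ENSMUSG00000009545, chr7:143106362-143427042, plus strand) encodes the pore of the slow delayed rectifier and lies in an imprinted domain, where the antisense transcript Kcnq1ot1 crosses it. It had 18.1 and 14.5 CPM in cKO and 12.53 and 15.8 CPM in control. The groups overlapped, since cKO replicate 3 fell between the controls. The log2 fold change was 0.18 ± 0.18 (SE, edgeR, adjusted p = 0.874; 95% interval 0.858-fold to 1.51-fold), and it was 0.031 without cKO replicate 2. Kcnq1 exons share 121 bases with Kcnq1ot1, whose annotated Ensembl identifier is absent from the deposited table, so it has no values here. The library kit (TruSeq RNA v2) does not mark strand, so reads from the 2 strands cannot be told apart there.

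Kcne1, the accessory subunit that joins the Kcnq1 pore in the slow delayed rectifier, had the smallest p of the 7 tested accessory subunits. It had 14.4 and 19.5 CPM in cKO and 26.2 and 27.6 CPM in control. Both cKO libraries were below both controls. Its log2 fold change was -0.64 ± 0.15 (SE) with an unadjusted p of 0.00289, and it did not pass edgeR's test after adjustment (adjusted p = 0.249). Per kilobase of exon, Kcne1 stood to Kcnq1 at 1.01 and 1.72 in cKO and at 2.67 and 2.23 in control, a ratio chosen after its values were seen.

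Kcnh2 (ENSMUSG00000038319, chr5:24319589-24351604, minus strand) encodes the pore of the rapid delayed rectifier, the ERG channel. It had 110 and 111 CPM in cKO and 100.1 and 114 CPM in control. The cKO libraries were nearly equal and lay between the controls. The log2 fold change was 0.038 ± 0.09 (SE, edgeR, adjusted p = 0.952), with a 95% interval from 0.888-fold to 1.19-fold. Kcnj2 (ENSMUSG00000041695, chr11:111066164-111076821, plus strand) encodes Kir2.1, the main inward rectifier of the mouse ventricle. It had 14.7 and 18.2 CPM in cKO and 19.4 and 14.2 CPM in control, with a log2 fold change of -0.014 ± 0.18 (SE, edgeR, adjusted p = 0.993; 95% interval 0.740-fold to 1.33-fold). The cKO values lay within the range of the controls, which differed by 0.44 on the log2 scale. Of the CPM per kilobase of the Kir2 genes Kcnj2, Kcnj12 and Kcnj4, Kcnj2 held 56.8% and 49.7% in cKO and 56.5% and 55.5% in control.

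**Figure D2:**
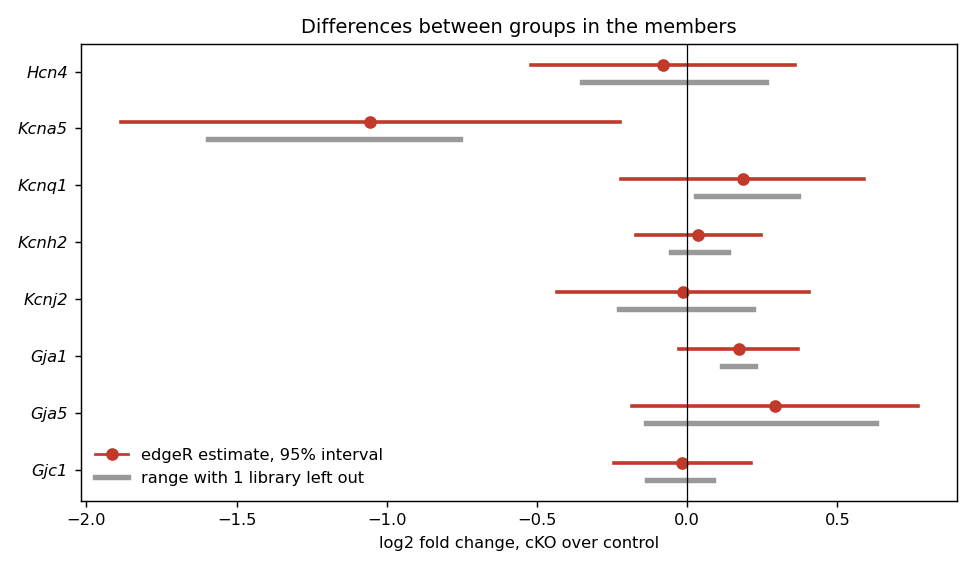
Log2 fold change of each gene, cKO over control (x axis), with edgeR's estimate and 95% interval in red and the range with 1 library left out in grey. The interval of Kcna5 ran from -1.89 to -0.22, and those of the other 7 genes crossed 0.

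Gja1 (ENSMUSG00000050953, chr10:56377330-56402513, plus strand) encodes connexin Cx43, the main connexin of working ventricular muscle. It had 634 and 645 CPM in cKO and 546.5 and 589.5 CPM in control. Both cKO libraries were above both controls. The log2 fold change was 0.17 ± 0.09 (SE), and Gja1 did not pass edgeR's test (unadjusted p = 0.0813, adjusted p = 0.737; 95% interval 0.982-fold to 1.29-fold). It stayed between 0.12 and 0.23 when 1 library was left out.

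Gjc1 (ENSMUSG00000034520, chr11:102799579-102819700, minus strand) encodes connexin Cx45, the first connexin of the heart tube and later a connexin of the nodes. It had 64.1 and 74.5 CPM in cKO and 70.9 and 69.8 CPM in control. The cKO libraries lay on either side of the controls. Its log2 fold change was -0.016 ± 0.10 (SE, edgeR, adjusted p = 0.982), with a 95% interval from 0.844-fold to 1.16-fold.

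Gja5 (ENSMUSG00000057123, chr3:96904693-97077416, plus strand) encodes connexin Cx40 of the atria, the trabeculae and arterial endothelium. It had 411 and 241 CPM in cKO and 261 and 270 CPM in control. Replicate 2 of the cKO was far above the controls and replicate 3 slightly below them, so the groups overlapped. Mean ± SD over the 2 libraries was 326 ± 120.1 CPM in cKO, against 266 ± 6.79 CPM in control, with a log2 fold change of 0.29 ± 0.21 (SE, edgeR, adjusted p = 0.811; 95% interval 0.881-fold to 1.70-fold). Exact Poisson intervals, which cover counting error only and not the spread between embryos, were 398 to 424 CPM and 234 to 248 CPM in cKO replicates 2 and 3, and 250 to 272 CPM and 259.8 to 281 CPM in control replicates 2 and 3. The gap between the cKO libraries, 0.77 on the log2 scale, was exceeded by 3.85% of all genes tested, while the controls differed by 0.052. Without cKO replicate 2 the log2 fold change turned to -0.14, and without cKO replicate 3 it was 0.63 with an adjusted p of 0.0652.

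Of 6 trabecular markers, Nppa and Bmp10 were above both controls in cKO replicate 2 and below both in cKO replicate 3, as Gja5 was, and the other 4 were not. Nppa, the atrial natriuretic peptide, picked for its values, as were Bmp10 and Tbx5, had 4176 and 1847 CPM in cKO and 2343 and 2184 CPM in control. Bmp10 had 108 and 66.6 CPM in cKO and 80.15 and 87.3 CPM in control, and the T-box factor Tbx5, which is not on the list and activates Gja5 in mice, had 78.4 and 58.1 CPM in cKO and 55.1 and 59.1 CPM in control. Cpne5, at 22.8 and 20.1 CPM in cKO and 12.1 and 12.2 CPM in control, and Nppb were higher in both cKO libraries, while Slit2 and Sema3a were below the control mean in both. None of the 6 was called. Their sum of 4887 and 2463 CPM in cKO and 2979 and 2888 CPM in control was mostly Nppa. Without Nppa the other 5 summed to 711 and 615 CPM in cKO and to 636 and 704 CPM in control. The atrial and inflow list, for the atria where Gja5 is also expressed, summed to 2672 and 2418 CPM in cKO and to 2666 and 2267 CPM in control. Markers of arterial endothelium, another site of Gja5, summed to 210 and 232 CPM in cKO and to 229 and 228 CPM in control, and were not higher in cKO replicate 2. Erythroid markers were lower in that library, at 2299 CPM against 5490 CPM in cKO replicate 3 and 4408 and 5001 CPM in control. The part of these other transcripts in the Gja5 values was not tested. Exons of the neighbour Gpr89 on the other strand share 165 bases with Gja5, where strands cannot be told apart either.

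**Figure D3:**
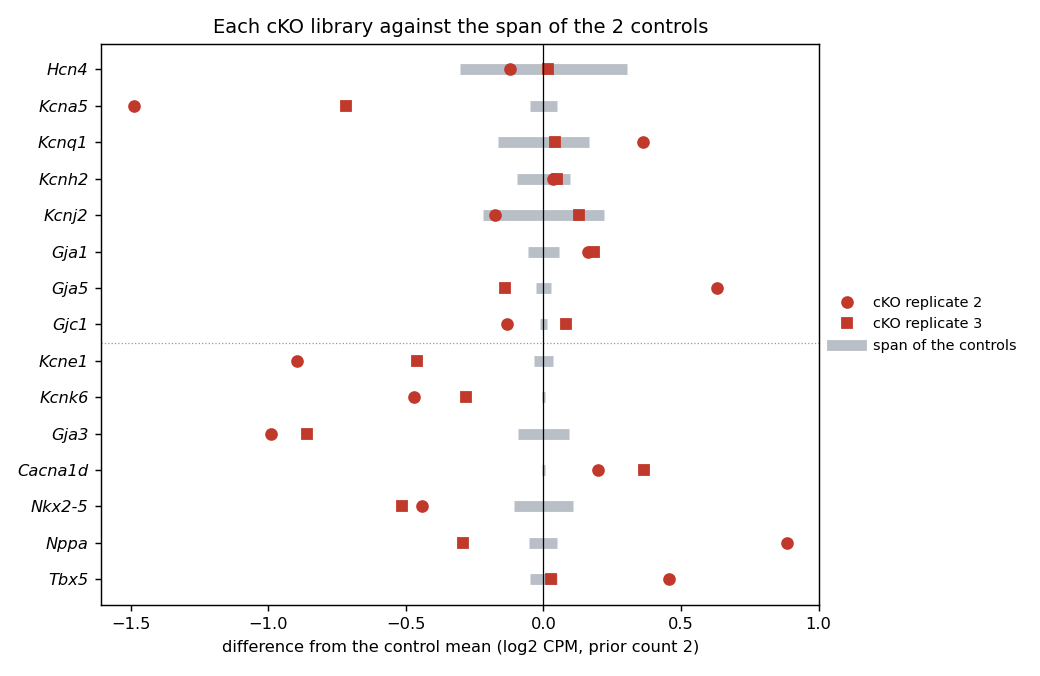
Difference of each cKO library from the mean of the controls (x axis, log2 CPM, prior count 2). The span of the 2 controls is a grey bar. The 8 genes are above the dotted line and genes of other lists below it: Gja5, Nppa and Tbx5 were high in cKO replicate 2 alone, and Kcna5, Kcne1, Kcnk6, Gja3 and Nkx2-5 were low in both cKO libraries.

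The connexins were also compared as a family, per length. Per kilobase of merged exon, Gja5 held 45.35% and 32.1% of all connexin CPM in cKO and 36.9% and 35.4% in control. Gja1 held 39.2% and 48.1% in cKO and 43.3% and 43.2% in control, and Gjc1 held 8.13% and 11.4% in cKO and 11.5% and 10.5% in control. Gja4, connexin Cx37 of arterial endothelium, held 6.81% and 7.62% in cKO and 7.36% and 9.496% in control, and the other 16 connexins together held at most 1.42% in any library. The shares depend on the length used, because the annotation's merged exons of Gja1 span 10.3 kilobases and the longest transcript that the deposited table lists for it 3.07 kilobases. With listed transcripts the share of Gja5 was 35.8% and 24.2% in cKO and 28.7% and 27.7% in control, and that of Gja1 was 56.0% and 65.5% in cKO and 60.8% and 61.1% in control. On either length, cKO replicate 2 had the highest Gja5 share and cKO replicate 3 the lowest.

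**Figure D4:**
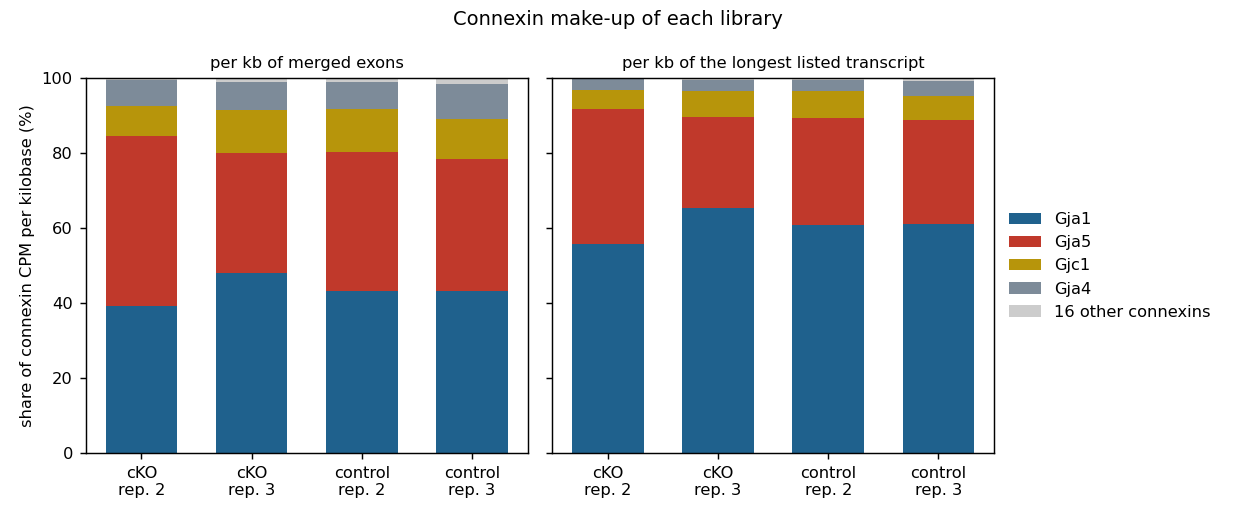
Share of each connexin in the summed connexin CPM per kilobase (y axis, percent) for each library, with length taken as merged exons (left) or as the longest listed transcript (right). Gja5 took 45.35% in cKO replicate 2 and 32.1% in cKO replicate 3 on the left, and 35.8% and 24.2% on the right.

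Levels of the 8 genes were ordered per kilobase of merged exon, by the mean over the 4 libraries. Gja1 had 61.8 and 62.8 CPM per kilobase in cKO and 53.3 and 57.5 in control, followed by Gja5 with 71.5 and 41.95 in cKO and 45.4 and 47.1 in control. On this length the neighbours were not separated, as Gja5 was above Gja1 in cKO replicate 2. Kcnh2 came next at a mean of 22.7 CPM per kilobase in cKO and 22.1 in control, then Gjc1 at 13.9 in cKO and 14.1 in control, and Gja5 exceeded Kcnh2, and Kcnh2 exceeded Gjc1, in all 4 libraries. Kcnq1 averaged 3.98 CPM per kilobase in cKO and 3.46 in control, Kcnj2 averaged 3.02 in cKO and 3.09 in control, and Hcn4 averaged 2.95 in cKO and 3.13 in control. The ranges of these 3 genes overlapped per merged exon, and their order differed between libraries. Kcna5 was the lowest in every library, at a mean of 0.642 CPM per kilobase in cKO and 1.40 in control. The order of the means was the same per kilobase of the longest listed transcript, but the separations were not. On that length Gja1, at 206.5 and 209.9 CPM per kilobase in cKO and 177.9 and 191.9 in control, was above Gja5 in all 4 libraries, as Gja5 had 132.2 and 77.5 in cKO and 83.9 and 87.0 in control. Kcnq1, at 5.98 and 4.78 in cKO and 4.14 and 5.21 in control, was then above Kcnj2 and Hcn4 in all 4 libraries.

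**Figure D5:**
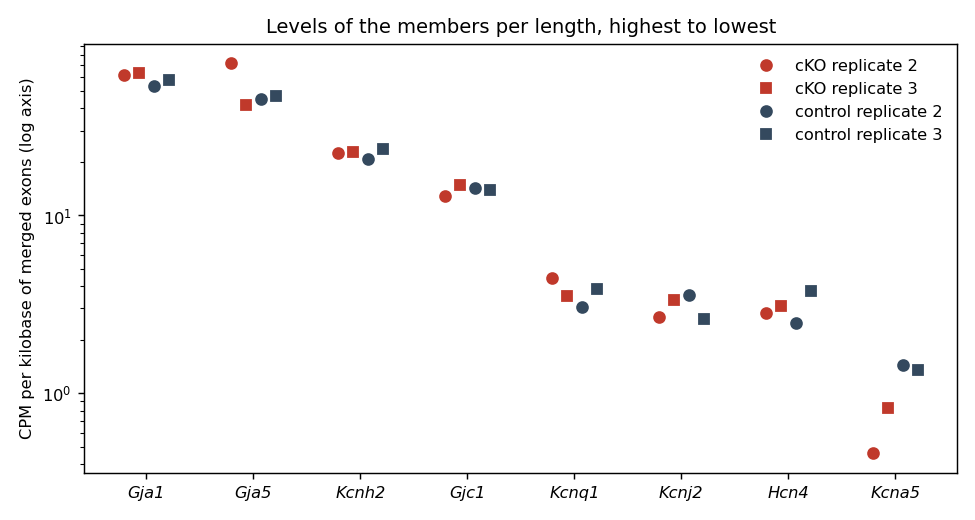
CPM per kilobase of merged exon (y axis, log scale) of the 8 genes in each library, ordered by the mean over libraries. The 3 connexins and Kcnh2 lie above the other 4 genes in all libraries, and Kcnq1, Kcnj2 and Hcn4 overlap.

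Related channels, partners and regulators were taken from 9 lists, of which 95 genes were in the table and 59 passed the filter on low counts. None passed edgeR's test or DESeq2's, and 8, or 13.6%, had an unadjusted p under 0.05, against 6.97% of all genes tested. The groups did not overlap for 19 of the 59 (12 lower and 7 higher in cKO), or 32.2%, against 38.2% of all genes tested. Nkx2-5, whose locus carries the Cre in cKO, is counted among the 8 and among the 12. The lists were chosen with earlier results of these data known, so these shares are a description only. The median log2 fold change over the 59 was -0.038.

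By list, 6 of 12 sodium channel subunits were tested (median log2 fold change 0.27, 4 positive). Under an alternative, a list's median covers the list genes that its own fit kept, which can differ from the tested genes. For the sodium channel subunits it was 0.052 with DESeq2 and 0.055 with no filter, which add genes too low for the main filter. It was 0.028 without cKO replicate 2. With the main filter it was 0.27 under both DESeq2 size factors and limma-voom. Of 11 other voltage-gated potassium channels 6 were tested (median -0.17, 1 positive), with Kcnd2 of the transient outward current having the smallest p at 9.71 and 6.68 CPM in cKO and 9.69 and 10.9 CPM in control (edgeR adjusted p = 0.786). The median over the genes kept was positive with DESeq2 (0.070) and with no filter (0.065), which add genes too low for the main filter. It was also positive without control replicate 3 (0.15). With the main filter it stayed negative under DESeq2 size factors (-0.17) and limma-voom (-0.19). Of 13 other inward rectifiers, their partners and background channels 11 were tested (median -0.052, 3 positive, and 0.046 without cKO replicate 3). The background channel Kcnk6 had the smallest p among them, at 10.4 and 11.9 CPM in cKO and 14.5 and 14.4 CPM in control (log2 fold change -0.37 ± 0.15, SE, edgeR adjusted p = 0.702). All 10 accessory subunits were in the table and 7 were tested (median -0.052, 3 positive, and from -0.24 to -0.0055 over the alternatives). Beside Kcne1, Kcne5, which can join the same pores and was chosen after its values were seen, had 12.95 and 10.75 CPM in cKO and 14.4 and 16.9 CPM in control (edgeR adjusted p = 0.679).

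Of the 17 other connexins 2 were tested. Gja3, connexin Cx46, best known from the lens, had 1.315 and 1.46 CPM in cKO and 2.60 and 2.98 CPM in control, without overlap (log2 fold change -0.99 ± 0.35, SE, unadjusted p = 0.0219, edgeR adjusted p = 0.620). Gja4 had 18.1 and 16.8 CPM in cKO and 15.25 and 21.3 CPM in control. The 10 intercalated disc genes were all tested, with a median of -0.042. The scaffold Tjp1, which binds connexin Cx43, had the smallest p at 235 and 251 CPM in cKO and 268 and 283 CPM in control (edgeR adjusted p = 0.708).

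Of the 4 pacemaker calcium channels (median 0.20, and 0.064 without cKO replicate 3), the L-type channel Cacna1d had 25.2 and 28.3 CPM in cKO and 22.0 and 21.8 CPM in control, without overlap (log2 fold change 0.29 ± 0.11, SE, edgeR adjusted p = 0.648). Of 15 regulators 13 were tested (median -0.025, 6 positive, and from -0.043 to 0.098 over the alternatives), with Nkx2-5 having the smallest p.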

How the data were processed

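Ventricular RNA of 2 cKO and 2 control embryos was sequenced as single reads of 75 bases from libraries of 500 ng total RNA, per the labels' protocols. The values deposited are 1 table of expected counts by gene, RSEM estimates that can be fractional. The submitters' processing notes name RSEM 1.2.3, CASAVA 1.8.2 and cutadapt 1.3, with GRCm38 as the build. Neither the annotation nor the settings are stated there. Between 13.9% and 16.9% of a library's values were not whole within 0.005, and reads shared between similar genes are divided by an estimate.

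Symbols, positions and merged exon lengths came from GENCODE M21 (GRCm38), with a symbol for 36345 of 38293 genes. Expected counts were rounded, filtered by group at edgeR's defaults (minimum count 10, minimum total 15), scaled by TMM and tested with edgeR 4.0.16 (glmQLFit and glmQLFTest, R 4.3.3), with Benjamini-Hochberg adjustment over 13711 genes, called under 0.05. There were 2 residual degrees of freedom. The SE is the log2 fold change over the square root of F, and 95% intervals use the test's total degrees of freedom. Per-library differences and profiles used log2 CPM with a prior count of 2. The edgeR fit alone was tested on simulated counts, drawn from the libraries' own mean levels and trended dispersion. Copies were searched with BLAST 2.17.0 (at least 95% identity over 75 bases).

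Named genes were the 8 members, the smallest p of each list, and for a member spanning over 1 log2 unit its 3 nearest profiles. The values of some list genes are not reported here. Members and lists were chosen with earlier results of these data known. The alternatives were DESeq2 1.42.0, limma-voom (limma 3.58.1), other scalings and filters, a replicate block, each library left out, other prior counts, and cKO replicate 3 thinned to 9176917 reads. The labels say the embryos were separate, and replicates were not duplicates: a chi-square test of their counts gave 13.05 per degree of freedom between the cKO libraries and 5.77 between the controls.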

Additional observations from a re-analysis of the deposited data

How the results depend on the processing

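None of the 8 genes was called under any of the 12 alternatives that were run (11 for Kcna5, which the filter at a mean of at least 5 CPM removes). Kcna5, Kcnq1 and Gja1 kept their direction in each of these. Leaving out 1 library, with the lone library assumed to vary like the other group, gave 39 to 141 calls over all genes against 70, and 0 to 1 in the channel and partner lists. It gave a median log2 fold change of -0.052 to 0.18 over the 8 genes and of -0.083 to 0.0070 over the list genes that each fit kept. It turned the sign of Hcn4 (-0.35 to 0.26), Kcnh2 (-0.054 to 0.14), Kcnj2 (-0.23 to 0.22), Gja5 (-0.14 to 0.63) and Gjc1 (-0.13 to 0.085). Upper-quartile scaling turned Kcnj2 to 0.0056 and Gjc1 to 0.0044, and limma-voom turned Kcnj2 to 0.022. The cause of these changes was not tested. With the replicate block 75 genes were called and 0 of the 8. Across genes, libraries with the same number deviated from their group means with a correlation of 0.106. No label gives such libraries a common origin and there are only 2 pairs, so they share only a number. The prior count of 2 for list medians and the length of the longest listed transcript were chosen after seeing the data. Depth limits Kcna5 most, with 13 reads in cKO replicate 2. The 95% intervals ran from 0.698-fold to 1.28-fold for Hcn4, from 0.858-fold to 1.51-fold for Kcnq1, from 0.740-fold to 1.33-fold for Kcnj2 and from 0.881-fold to 1.70-fold for Gja5, so differences within these bounds in either direction cannot be told from none here. Hif1a was called by DESeq2 alone. The signs of 3 of the 8 list medians that have a value turned under at least 1 alternative. Each median was taken over the list genes that the alternative kept, which can differ from those of the main fit.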

Other observations

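The T-box repressors Tbx2 and Tbx3, which hold the nodes and the atrioventricular canal back from a working muscle programme, were split between the cKO libraries. Tbx3 had 1.92 and 7.38 CPM in cKO and 3.78 and 2.54 CPM in control, and Tbx2 had 1.72 and 7.84 CPM in cKO and 3.19 and 3.53 CPM in control. Neither passed edgeR's test (adjusted p = 0.858 for Tbx3 and 0.875 for Tbx2). Of 7 cushion mesenchyme markers, Postn, Twist1 and Prrx1 were below both controls in cKO replicate 2 and above both in cKO replicate 3. Sox9 lay between the controls in cKO replicate 2 and above both in cKO replicate 3. Prrx2 and Tbx20 differed from the control mean by at most 0.12 (log2 CPM) in either cKO library. Col2a1 was lower in both, at 5.46 and 36.1 CPM in cKO and 78.9 and 64.95 CPM in control (edgeR adjusted p = 0.545). Gja5, Nppa and Tbx5 were high in cKO replicate 2, the library with the lower Tbx2 and Tbx3. These values were chosen after they were seen, and no relation between them was tested over 4 libraries.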
